A study of Homo sapiens with 6 samples.

Results

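The snaR genes encode a family of near-identical small noncoding RNAs. They were taken as every array row whose gene symbol starts with SNAR-, which gave 14 of the 16098 rows with a gene symbol. These rows stand for 8 of the 14884 genes measured: SNAR-B1, SNAR-C1, SNAR-D, SNAR-F, SNAR-G1, SNAR-G2, SNAR-H and SNAR-I. The family was chosen by the gamma_OFF and CTRL values of several of its genes, which differed in an earlier look at the same table. That contrast is therefore described here and not tested.

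The snaR genes are found in humans and African great apes and descend from Alu elements. RNA polymerase III transcribes them from promoter elements that lie inside the transcribed sequence, and the short product folds into a long imperfect hairpin. snaR RNA is known to be plentiful in testis and in many immortalised and cancer cell lines, and part of it is found with ribosomes.

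The study profiled total RNA of H9 human embryonic stem cells, an established line, on 6 Affymetrix gene arrays. All groups were clonal lines carrying a lentiviral vector in which the EF1α promoter drives the insert and eGFP. Cells positive for eGFP and the surface antigen TRA 1-60 were sorted, plated singly on mouse embryonic fibroblasts, and grown on in medium conditioned by such fibroblasts, to which bFGF was added at 8 ng/ml. The 2 CTRL arrays carried eGFP alone. The 2 gamma_ON arrays carried H2A.X with S139E, which places a glutamate where the histone variant is phosphorylated at DNA breaks, and the 2 gamma_OFF arrays carried H2A.X with T136A and S139A, which removes the phosphorylated residues. Unsubstituted H2A.X was not among the vectors, so the substitutions cannot be told apart from added H2A.X. Whether the replicates of a group are separate clones or cultures is not stated in the labels, so p-values measure only the spread between these arrays, which may be technical. In a bulk sample, fewer cells that make an RNA cannot be told apart from less RNA per cell.

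Array medians over all rows lay between 6.11 and 6.25 on the log2 scale. Signal varied least across genes on gamma_OFF replicate 2 (SD 1.64), and the SD of the other arrays ran from 1.70 to 1.81. In gamma_OFF minus CTRL, genes below the median level had a median log2 difference of 0.14, and genes at or above it had -0.10. All 8 snaR genes lay above the median level of 7.12. Of 10 pluripotency markers 9 were measured, and their mean log2 level lay between 10.10 and 10.39 on every array. NANOG was the lowest of the 9, at 6.26 to 7.29. In the fit of all 6 arrays limma called POU5F1 higher in gamma_ON than in CTRL (0.71, adjusted p = 0.0441) and DNMT3B higher in gamma_OFF than in CTRL (0.46, adjusted p = 0.0489).

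RefSeq lists 28 snaR genes on the assembly GRCh38.p14, with lengths of 119 to 128 bases, and 26 of them are on chromosome 19. Of these 26, SNAR-B1, SNAR-C1, SNAR-D, SNAR-F, SNAR-G1 and SNAR-G2 had a row with their name. SNAR-H is on chromosome 2 and SNAR-I on chromosome 3. The other 20 listed genes, among them all SNAR-A copies, had no row of their own name. RNA from such a copy may be read by the rows of its relatives, and the separate values of near-identical copies are therefore uncertain.

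Several rows were not independent measurements. The 14 rows held 10 distinct sets of 6 values, and 7 rows repeated another snaR row to the last deposited digit on all 6 arrays. SNAR-C1 had 5 rows with 2 distinct sets, of 2 and 3 rows. SNAR-B1 had 3 rows with 2 distinct sets, and 2 further rows without a gene symbol carried the same values as the SNAR-B1 row used here. Repeated values were found in 2.52% of all named rows. SNAR-B1 and SNAR-C1 were also nearly the same measurement: with each row centred on its own mean, the rows used for the 2 genes differed by at most 0.06 on any array. The other SNAR-C1 set differed from the SNAR-B1 rows by up to 0.26. The 10 sets rather than the 14 rows are the data on this family.

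The genes that shared a pattern are described first, and the row with the highest mean was used for each gene. SNAR-B1 measured 10.44 and 10.50 on the CTRL arrays, 11.45 and 11.35 on gamma_ON, and 11.88 and 12.79 on gamma_OFF (RMA log2 level, replicates 1 and 2). SNAR-C1 measured 10.40 and 10.47, then 11.37 and 11.23, then 11.74 and 12.70 in the same order of groups. In both genes the 3 groups formed steps with no overlap, and gamma_OFF replicate 2 stood well above its partner.

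SNAR-D, the chromosome 19 neighbour of SNAR-B1, measured 8.75 and 8.82 on CTRL, 9.35 and 9.25 on gamma_ON, and 9.68 and 10.63 on gamma_OFF. SNAR-H, the copy on chromosome 2, measured 7.97 and 8.28 on CTRL, 9.14 and 9.001 on gamma_ON, and 9.49 and 11.17 on gamma_OFF. The order CTRL, gamma_ON, gamma_OFF held in every array of these 4 genes. It was found in 4 of the 8 snaR genes and in 3.43% of all genes. The order includes gamma_OFF above CTRL, the contrast that picked the family, so this count is a description only. SNAR-B1 and SNAR-C1 within it are nearly the same measurement. The second set of SNAR-C1 values followed the same order, with 8.22 and 8.52 on CTRL, 9.15 and 9.02 on gamma_ON, and 9.53 and 10.54 on gamma_OFF.

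**Figure D1:**
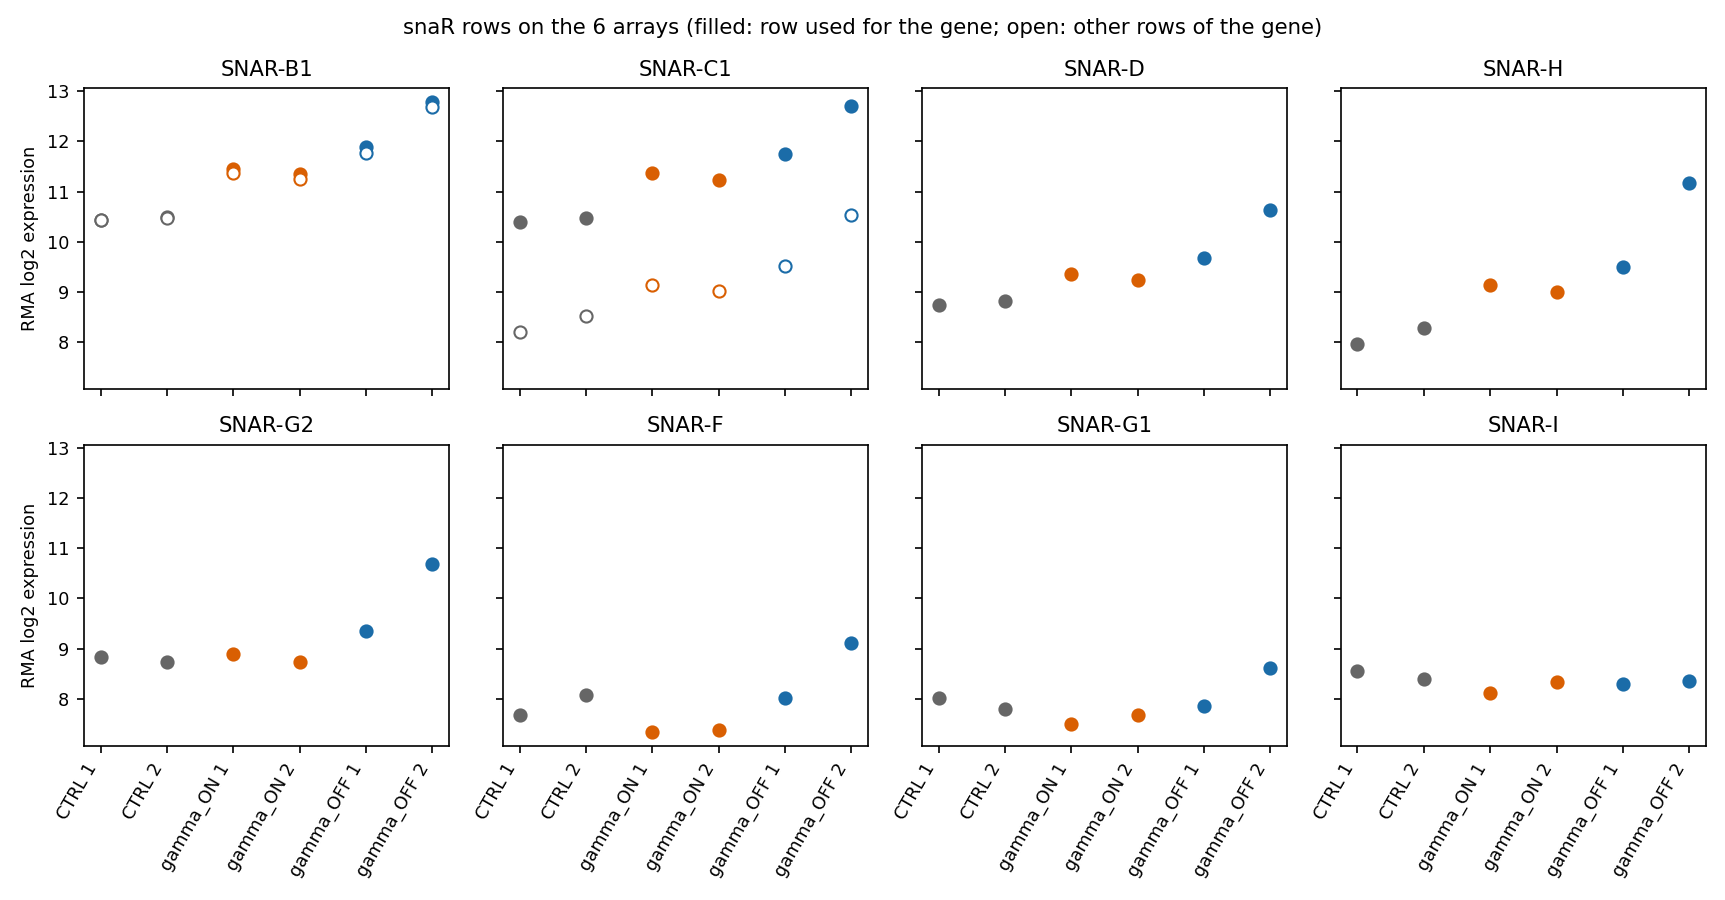
RMA log2 expression of each distinct snaR row (vertical axis) on the 6 arrays (horizontal axis), grey for CTRL, orange for gamma_ON and blue for gamma_OFF; filled points are the row used for the gene and open points its other rows. SNAR-B1, SNAR-C1, SNAR-D and SNAR-H step up from CTRL to gamma_ON to gamma_OFF, SNAR-G2, SNAR-F and SNAR-G1 are highest on gamma_OFF replicate 2, and SNAR-I lies between 8.11 and 8.56 throughout.

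The remaining genes did not share these steps. SNAR-G2, which lies among the chorionic gonadotropin beta genes, measured 8.84 and 8.73 on CTRL, 8.89 and 8.73 on gamma_ON, and 9.35 and 10.68 on gamma_OFF. Here CTRL and gamma_ON overlapped and only the gamma_OFF arrays stood apart.

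SNAR-G1, in the same gene cluster, measured 8.02 and 7.80 on CTRL, 7.49 and 7.69 on gamma_ON, and 7.87 and 8.62 on gamma_OFF. SNAR-F measured 7.68 and 8.07 on CTRL, 7.34 and 7.37 on gamma_ON, and 8.03 and 9.12 on gamma_OFF. In both, the gamma_ON arrays were the lowest, gamma_OFF replicate 1 lay within the CTRL range, and gamma_OFF replicate 2 was the highest. SNAR-I, the copy on chromosome 3, measured 8.56 and 8.40 on CTRL, 8.11 and 8.34 on gamma_ON, and 8.29 and 8.36 on gamma_OFF. It was the only snaR gene whose highest value was on a CTRL array.

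The comparison of gamma_ON with CTRL shows the family in arrays that did not serve to pick it, although the CTRL arrays did, so it is not fully independent. On the log2 scale, SNAR-B1 stood 0.93 (SE 0.24), SNAR-H 0.94 (SE 0.42), SNAR-C1 0.86 (SE 0.25) and SNAR-D 0.52 (SE 0.25) above CTRL, which are folds of 1.91, 1.93, 1.82 and 1.43. Their adjusted p-values by limma over all genes were 0.103, 0.336, 0.149 and 0.382 in that order. SNAR-F, SNAR-G1 and SNAR-I had differences of -0.52 (SE 0.29), -0.32 (SE 0.22) and -0.25 (SE 0.13), and SNAR-G2 had 0.02 (SE 0.34). By limma 0 of 8 passed an adjusted p of 0.05 (3 had an unadjusted p under 0.05, as had 14.8% of all genes), against 1.55% of all genes called. The groups did not overlap in 7 of the 8: 4 were higher in gamma_ON, as were 30.0% of all genes, and 3 were lower, as were 22.3%. The median over the 8 genes was 0.27, against 0.02 over all genes.

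That outcome depended on the settings of the fit and on the gamma_OFF arrays, which share the estimate of the spread in the fit of all 6 arrays. With all 6 arrays kept, limma called 2 snaR genes with array weights, when 5.40% of all genes were called. It called 3 with each array centred on its small noncoding RNA genes, when 3.83% of all genes were. In a fit of CTRL and gamma_ON only, SNAR-B1, SNAR-C1, SNAR-H and SNAR-D were called. Their limma adjusted p-values were then 0.00777, 0.0114, 0.0186 and 0.0428, and the differences were unchanged, with SEs of 0.10, 0.10, 0.13 and 0.10. Leaving out either gamma_OFF array gives the same fit, since the other then adds nothing to the spread. In it 3.27% of all genes were called. SNAR-F had an adjusted p of 0.0956 by limma and was not called. Leaving out either CTRL array or either gamma_ON array gave 0 calls among the snaR genes, and 0.228% to 0.611% of all genes were called in those fits.

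In gamma_OFF minus CTRL, the contrast that picked the family, the log2 differences were 2.21 (SE 0.42) for SNAR-H, 1.86 (SE 0.24) for SNAR-B1, 1.78 (SE 0.25) for SNAR-C1 and 1.38 (SE 0.25) for SNAR-D. These are folds of 4.62, 3.64, 3.44 and 2.59. SNAR-G2, which that earlier description did not single out, stood at 1.23 (SE 0.34), a fold of 2.34. SNAR-F stood at 0.69 (SE 0.29), SNAR-G1 at 0.34 (SE 0.22) and SNAR-I at -0.15 (SE 0.13). The gamma_OFF arrays lay above both CTRL arrays in 5 genes, as in 31.1% of all genes, and below both in 1 gene, SNAR-I, as in 30.2% of all genes. In this comparison limma called 8.85% of all genes. The median over the 8 genes was 1.30, against 0.01 over all genes. It was 0.73 without gamma_OFF replicate 2 and 1.87 without gamma_OFF replicate 1. Without gamma_OFF replicate 2, SNAR-H stood at 1.37, SNAR-B1 at 1.41, SNAR-C1 at 1.30 and SNAR-D at 0.90. SNAR-G2 then stood at 0.56, SNAR-F at 0.15 and SNAR-G1 at -0.04, so the difference of SNAR-G1 changed sign.

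**Figure D2:**
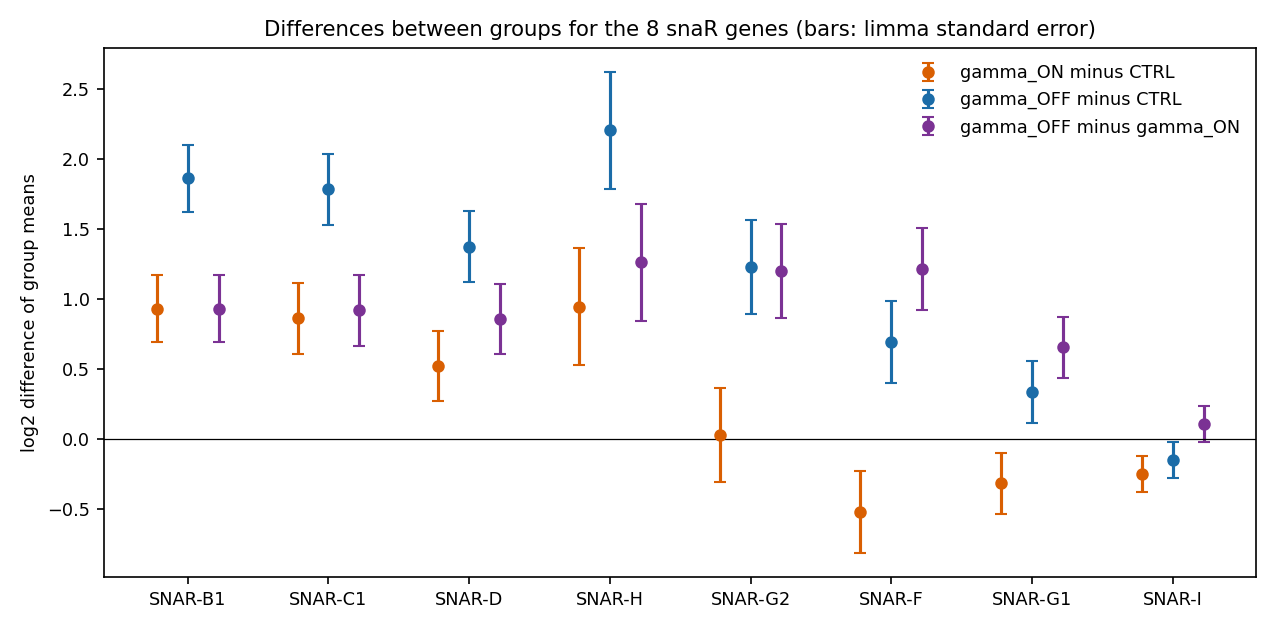
Log2 difference of group means (vertical axis) for each snaR gene (horizontal axis) in gamma_ON minus CTRL (orange), gamma_OFF minus CTRL (blue) and gamma_OFF minus gamma_ON (purple); bars are limma standard errors from the fit of all 6 arrays, 2 per group. SNAR-F and SNAR-G1 are below 0 in gamma_ON minus CTRL and above 0 in both other comparisons, while SNAR-I runs from -0.25 to 0.10.

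The comparison of gamma_OFF with gamma_ON sets both H2A.X vectors against each other and shares the gamma_OFF arrays with the contrast that picked the family. All 8 differences were positive, with a median of 0.93 against -0.02 over all genes, but SNAR-I was at -0.0073 without gamma_ON replicate 1 and at -0.093 with arrays centred on small noncoding RNA genes. SNAR-F rose by 1.22 (SE 0.29, limma adjusted p = 0.0477), a fold of 2.32, and 7 did not pass. SNAR-H stood at 1.26 (SE 0.42), SNAR-G2 at 1.20 (SE 0.34), SNAR-B1 at 0.93 (SE 0.24), SNAR-C1 at 0.92 (SE 0.25), SNAR-D at 0.85 (SE 0.25), SNAR-G1 at 0.65 (SE 0.22) and SNAR-I at 0.10 (SE 0.13). The limma adjusted p-values of these 7 ran from 0.0539 for SNAR-B1 to 0.583 for SNAR-I. Of all genes 5.99% were called.

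In 7 of the 8 genes both gamma_OFF arrays lay above both gamma_ON arrays, as in 27.6% of all genes, and 0 lay below, as in 35.8% of all genes. The family was picked by gamma_OFF against CTRL, so this count is a description only. SNAR-B1 and SNAR-C1 within it are nearly the same measurement. The fit without gamma_OFF replicate 1 keeps only gamma_OFF replicate 2, where these 7 genes were highest, so its calls are not given. With any other single array left out, 0 snaR genes and 0.329% to 1.85% of all genes were called. Without gamma_OFF replicate 2 the differences were smaller: SNAR-F stood at 0.67, SNAR-G2 at 0.53, SNAR-B1 at 0.48, SNAR-C1 at 0.44, SNAR-H at 0.42, SNAR-D at 0.38, SNAR-G1 at 0.28 and SNAR-I at 0.07. The adjusted p of SNAR-F by limma was 0.114 without gamma_OFF replicate 2, 0.0719 without either CTRL array, and 0.290 or 0.126 with replicate 1 or 2 of gamma_ON left out.

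The replicate spread of the family was widest in gamma_OFF. Between the CTRL replicates the 8 genes differed by 0.06 to 0.39, and between the gamma_ON replicates by 0.04 to 0.22, where the median over all genes was 0.11 and 0.12 and the 95th percentile was 0.38 and 0.41. SNAR-F in CTRL, at 0.39, lay just past that percentile. In gamma_OFF, replicate 2 exceeded replicate 1 by 1.68 for SNAR-H, 1.34 for SNAR-G2, 1.09 for SNAR-F, 0.96 for SNAR-C1, 0.95 for SNAR-D, 0.90 for SNAR-B1 and 0.76 for SNAR-G1. The median absolute difference over all genes was 0.18 there, and the 95th percentile of that difference was 0.57.

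Replicate 2 of gamma_OFF was at least 0.5 above replicate 1 in 7 of the 8 snaR genes and in 3.47% of all genes. It held the highest of the 6 values in the same 7 genes and in 28.6% of all genes. The family was picked by gamma_OFF against CTRL, so that count is a description only. The 7 genes may also read RNA of each other and are not separate counts. SNAR-I differed by 0.07 between the gamma_OFF replicates. The narrow signal range of gamma_OFF replicate 2 moved with these values, and its part in them was not tested. The median of gamma_OFF minus CTRL over the 8 genes, the contrast that picked the family, was 1.48 after quantile normalization between arrays.

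**Figure D3:**
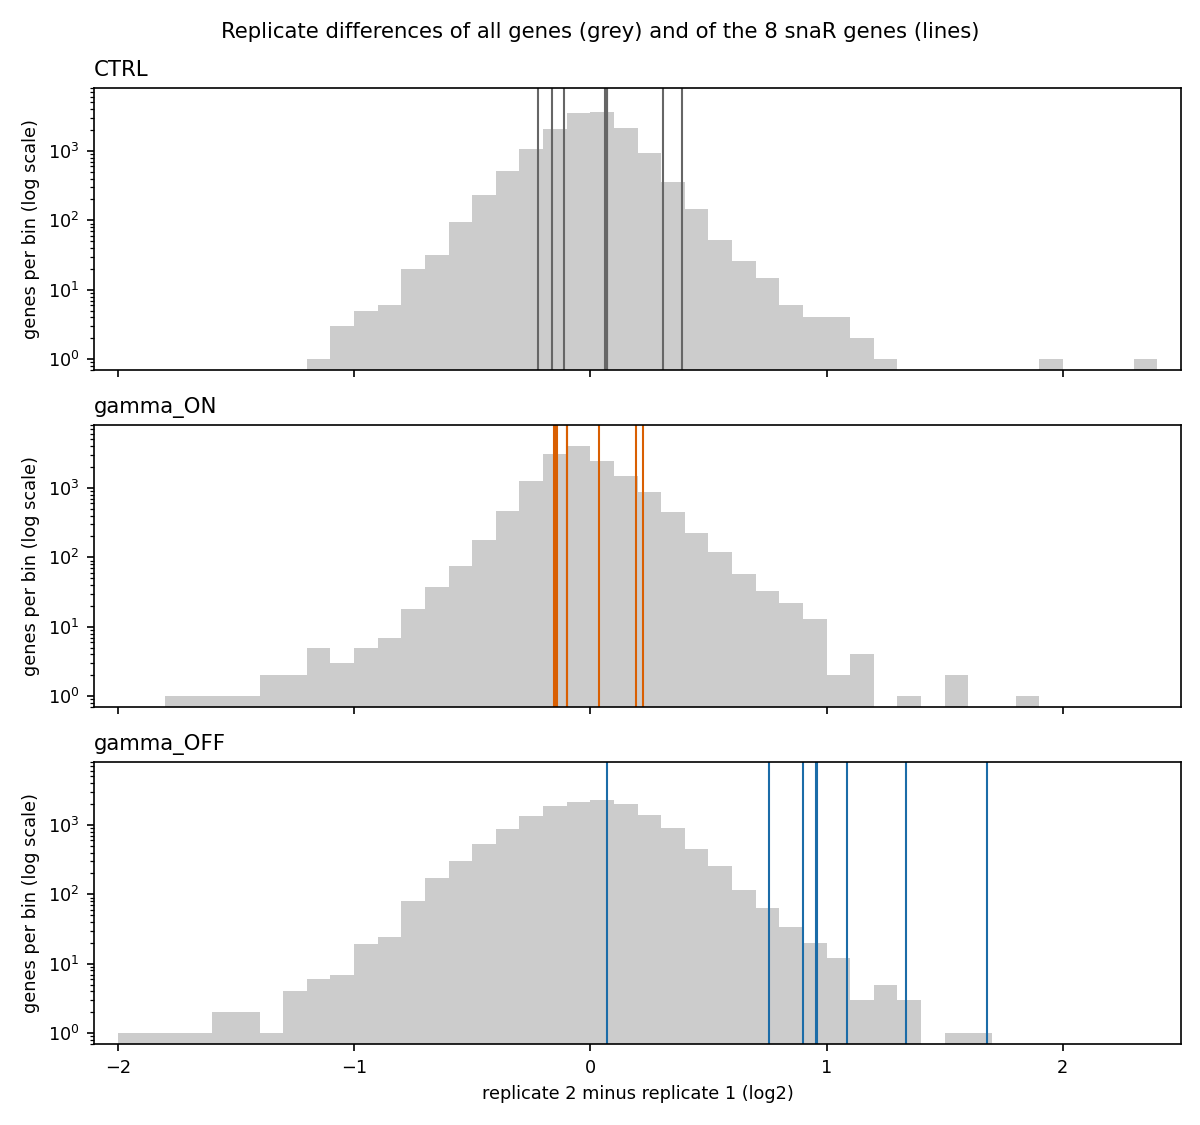
Replicate 2 minus replicate 1 on the log2 scale (horizontal axis) for all 14884 genes as grey bars (genes per bin of 0.1, log scale on the vertical axis) and for the 8 snaR genes as lines, 1 panel per group. In gamma_OFF 7 of the 8 lines lie at 0.76 or above, and SNAR-I lies at 0.07.

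Other RNAs made by RNA polymerase III were read beside the family. Of 24 listed, 6 were measured: RMRP and RPPH1, the RNA parts of the RNases MRP and P, and the vault RNAs VTRNA1-1, VTRNA1-2, VTRNA1-3 and VTRNA2-1. By limma 0 of the 6 were called in any of the 3 comparisons, and at an unadjusted p under 0.05 the counts were 1 for gamma_ON minus CTRL, 2 for gamma_OFF minus CTRL and 0 for gamma_OFF minus gamma_ON. The same unadjusted threshold was passed by 14.8%, 30.4% and 33% of all genes. RMRP measured 13.01 and 13.00 on CTRL, 12.79 and 12.78 on gamma_ON, and 12.53 and 12.83 on gamma_OFF. Its differences from CTRL were -0.22 (SE 0.13) in gamma_ON and -0.33 (SE 0.13) in gamma_OFF. The median of the 6 RNAs in gamma_OFF minus CTRL was -0.08, with a range from -0.33 to 0.48.

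Subunits of RNA polymerase III likewise had 0 of 8 measured genes called by limma in each comparison. POLR3G, the subunit of the enzyme form typical of stem cells, measured 10.62 and 10.73 on CTRL, 11.00 and 10.98 on gamma_ON, and 10.96 and 10.58 on gamma_OFF. Its differences were 0.32 (SE 0.14) in gamma_ON and 0.09 (SE 0.14) in gamma_OFF against CTRL. POLR3GL, the alternative subunit in other tissues, stood at 0.03 and -0.03 (SE 0.11 each). The list's median was 0.11 in gamma_ON and -0.03 in gamma_OFF against CTRL. It was -0.23 in gamma_OFF minus gamma_ON, where 7 of 8 were negative. All genes at or above the median level had a median of -0.17 in that comparison. Without gamma_OFF replicate 1, POLR3B, POLR3C, POLR3E, POLR3G and POLR2H stood lower in gamma_OFF than in gamma_ON, by 0.66, 0.80, 0.45, 0.41 and 0.65. They were picked for their values in that fit, which rests on a single gamma_OFF array. Their part in the snaR values was not tested.

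Of the initiation factors and the repressor, 3 of 17 listed genes were measured and 0 were called by limma. MAF1, which represses RNA polymerase III, stood at 0.24 (SE 0.11, limma adjusted p = 0.374) in gamma_ON and at 0.09 (SE 0.11, limma adjusted p = 0.607) in gamma_OFF against CTRL. The initiation factor gene GTF3A stood at 0.27 and -0.04, and TBP, the gene of the TATA-binding protein, at 0.02 and -0.07.

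Of 18 listed genes for proteins that bind double-stranded or polymerase III RNA, 8 were measured and 0 were called by limma in any comparison. SSB, which encodes the La protein that binds the ends of new polymerase III transcripts, stood at 0.14 (SE 0.13) in gamma_ON and -0.04 (SE 0.13) in gamma_OFF against CTRL. DHX9, an RNA helicase gene, stood at 0.33 and 0.12. ZFR, the gene of a zinc finger RNA-binding protein, stood at 0.11 and -0.32, and at -0.43 (SE 0.13, limma adjusted p = 0.0705) in gamma_OFF minus gamma_ON. Without gamma_OFF replicate 1, which leaves a single gamma_OFF array, that difference was -0.55. Of 11 listed genes of the gonadotropin cluster 3 were measured, LHB, NTF4 and RUVBL2. The listed chorionic gonadotropin beta genes had no row with their name and were not read. Over the 28 genes of these lists and this cluster together, the median in gamma_OFF minus CTRL was -0.02, with 13 positive and 15 negative. In gamma_ON minus CTRL 23 were positive and 5 negative, and in gamma_OFF minus gamma_ON 4 were positive and 24 negative, with medians of 0.13 and -0.14.

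**Figure D4:**
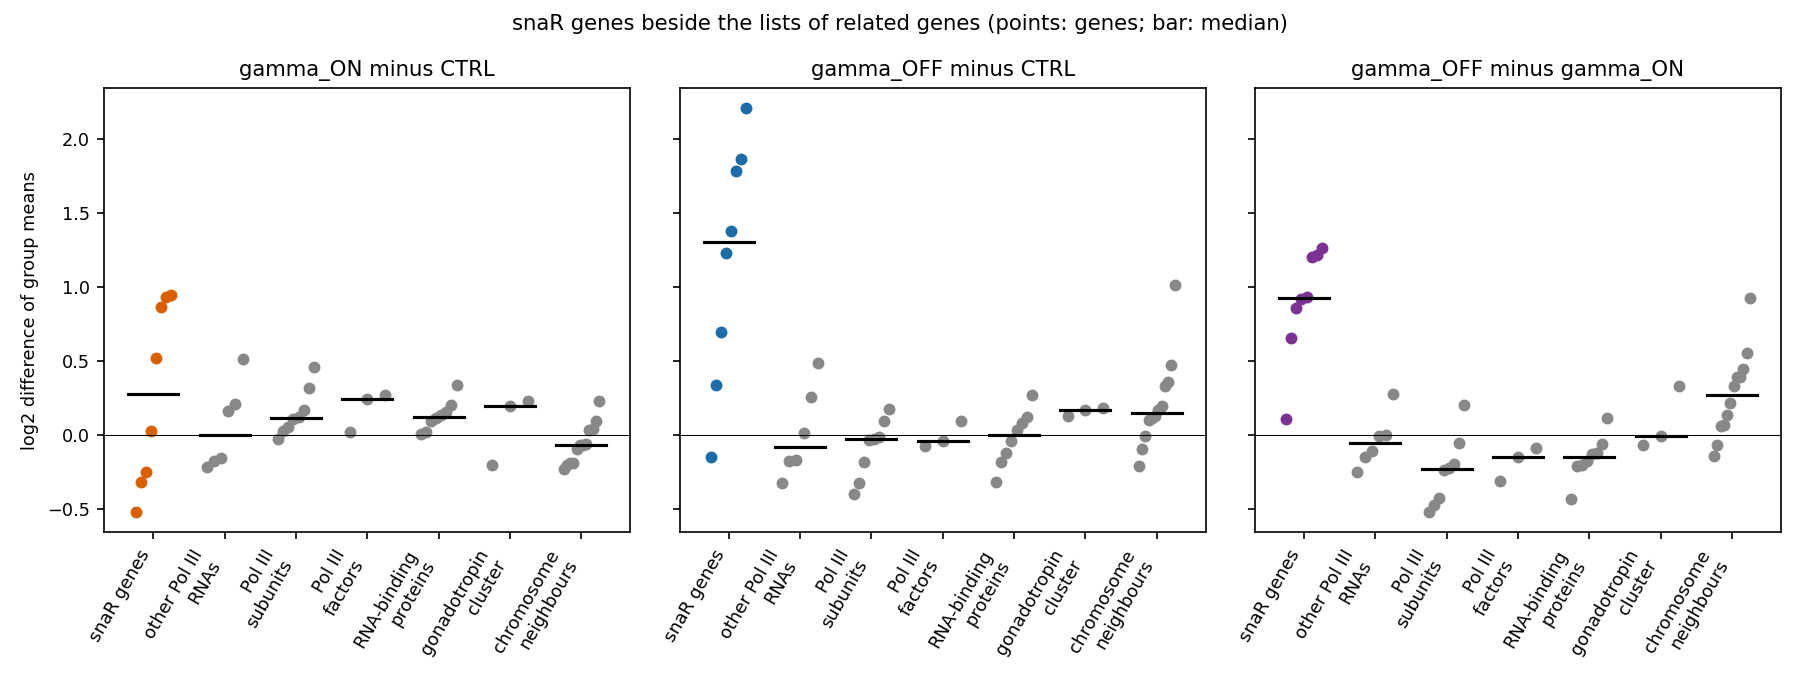
Log2 difference of group means (vertical axis) for the snaR genes (coloured) and for the genes of the lists and the chromosome neighbours (grey), with 1 point per gene, a bar at each median and 1 panel per comparison. In gamma_OFF minus CTRL the snaR median is 1.30 and the medians of the polymerase III RNAs, subunits and factors are -0.08, -0.03 and -0.04.

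Small noncoding RNA genes of other kinds were read on the same arrays. Of 1098 genes with a microRNA symbol, limma called 70 higher and 57 lower in gamma_OFF than in CTRL, with a median of 0.14, when it called 2.77% of all genes higher and 6.08% lower. Of 23 small Cajal body RNA genes, which guide the modification of spliceosomal RNAs, it called 0 higher and 12 lower, with a median of -0.48. In gamma_ON minus CTRL it called 4 higher and 30 lower of the microRNA genes, and 0 higher and 1 lower of the Cajal body RNA genes, against 0.739% and 0.806% of all genes. In gamma_OFF minus gamma_ON it called 69 microRNA genes higher and 12 lower, with a median of 0.20, against 2.02% and 3.98% of all genes. The median over all genes below the median level was 0.13 there. With each array centred on the median of its 1125 small noncoding RNA genes, the snaR median of gamma_OFF minus CTRL was 1.26. In gamma_ON minus CTRL that scaling gave limma calls for SNAR-B1, SNAR-C1 and SNAR-H, with adjusted p-values of 0.00377, 0.00914 and 0.0442, when 3.83% of all genes were called.

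The nearest measured genes on either side of each snaR gene, in RefSeq order, gave 12 neighbours, with 0 to 12 other RefSeq genes in between. Other snaR genes were left out of this order and of the genes in between. In gamma_OFF minus CTRL limma called 1 of the 12 higher and 0 lower, a share near the 8.85% called over all genes, and the median was 0.14. The gene called was IZUMO2, which belongs to a family of sperm membrane proteins and lies beside SNAR-B1 and SNAR-D. It measured 5.05 and 4.87 on CTRL, 5.18 and 4.93 on gamma_ON, and 6.01 and 5.95 on gamma_OFF. Its gamma_OFF arrays lay close together, and gamma_ON overlapped CTRL. IZUMO2 rose by 1.02 (SE 0.13, limma adjusted p = 0.00635) against CTRL, and the adjusted p was 0.0521 without CTRL replicate 2.

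ZNF473, the zinc finger gene on the other side of SNAR-B1 and SNAR-D, stood at -0.21 in gamma_OFF minus CTRL. LHB and NTF4, on either side of SNAR-G1 and SNAR-G2, stood at 0.12 and 0.16. CRX and BSPH1, on either side of SNAR-C1, stood at 0.36 and 0.47, and LRRTM4 and REG3G, around SNAR-H, at -0.01 and 0.10. LRRC4B and SYT3, around SNAR-F, stood at -0.10 and 0.33, and GMNC and OSTN, around SNAR-I, at 0.20 and 0.11. In gamma_OFF minus gamma_ON, IZUMO2 (0.92, limma adjusted p = 0.0103) and CRX, a photoreceptor homeobox gene (0.55, limma adjusted p = 0.0482), rose and 10 did not pass. Limma called 5.99% of all genes in that comparison. With gamma_ON replicate 1 left out, the IZUMO2 adjusted p by limma was 0.0557, and with replicate 2 of that group left out it was 0.0777. CRX was not called without either CTRL array (adjusted p 0.0865 by limma), without replicate 1 (0.290) or 2 (0.133) of gamma_ON, or without gamma_OFF replicate 2 (0.141). With other settings for all arrays the CRX adjusted p by limma was 0.0529 with every named row kept, 0.147 with every row, 0.0789 with array weights, 0.0772 with quantile normalization and 0.104 with small noncoding RNA centring, and that of IZUMO2 was 0.0953 with every row. Without gamma_OFF replicate 1, CRX, BSPH1 and SYT3 stood above CTRL in gamma_OFF, by 0.51, 0.64 and 0.47. These neighbours were picked for their values in that fit, which rests on a single gamma_OFF array. In gamma_ON minus CTRL limma called 0 of the 12, also 0 at an unadjusted p under 0.05.

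Markers of other cell types were read beside these results. Of 8 testis germ cell markers, limma called 0 in each comparison. Their mean log2 level lay between 5.24 and 5.29 on CTRL, 5.22 and 5.23 on gamma_ON, and 5.49 and 5.57 on gamma_OFF. Of 10 fibroblast markers 4 were measured, with mean levels of 8.04 to 8.19, 8.20 to 8.25 and 7.74 to 7.88 in the same order. Limma called 1 of these 4 lower in each comparison, with 3 not passing. These were TAGLN, an actin-binding protein gene of contractile cells, in both comparisons with CTRL, and LUM, a matrix proteoglycan gene, in gamma_OFF against gamma_ON. The calls stand beside 0.806%, 6.08% and 3.98% of all genes called lower in gamma_ON minus CTRL, gamma_OFF minus CTRL and gamma_OFF minus gamma_ON. In gamma_ON minus CTRL, LUM stood at 0.86 and DCN, another matrix proteoglycan gene, at 0.43, opposite in sign to TAGLN at -0.62. The part of either cell type in the snaR values was not tested.

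Among 278 genes with an SD over the 6 arrays of at least 0.5, the pattern most like the mean of the 8 snaR genes was that of MIR4717, with a Pearson's r of 0.99 over the 6 arrays. MIR4717 measured 6.58 and 6.65 on CTRL, 7.04 and 6.97 on gamma_ON, and 7.20 and 8.55 on gamma_OFF, so it too was highest on gamma_OFF replicate 2. MIR1185-2, MIR3201, MIR1185-1, MIR4420 and MIR4490 followed, with r from 0.93 to 0.97. All 6 are microRNA genes, a class that made up 27% of the 278 genes. These correlations share 6 arrays in 3 groups and are a description only. Within the family, r with the mean of the other members was highest for SNAR-D, at 0.98, followed by SNAR-G2 and SNAR-H at 0.97 each. It was 0.78 for SNAR-F, 0.75 for SNAR-G1 and -0.19 for SNAR-I.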

How the data were processed

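The authors deposited log2 expression values, 1 column per array and 1 row per feature; RMA and Partek 6.6 are named, per the submitters' processing notes. The build and annotation behind the rows are not known here (not given in the sources used here), and raw scanner values were not analysed. A probe table from the platform annotation named 16098 of 53617 rows; all their gene identifiers matched RefSeq (GRCh38.p14). A gene with more than 1 row was represented by its brightest row on average, which left 14884 genes. Differences were fitted with limma 3.58.1 in R 4.3.3 (lmFit and eBayes) over all 6 arrays, with 3 residual and 6.05 prior degrees of freedom. P-values are two-sided, with Benjamini-Hochberg adjustment across the 14884 genes and calls under 0.05. The smallest p that an exact permutation of 2 and 2 arrays allows is 0.333. When 1 array of a group is left out, the other is assumed to vary like the remaining groups.

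The members and gene lists were chosen with earlier results of these data known. Named genes were all snaR rows, always POLR3G, POLR3GL, MAF1 and SSB, called list members, nearest measured neighbours, and the 6 most similar genes. RMRP, GTF3A, TBP, DHX9, ZFR and the list members called only without an array were named after their values were seen. Alternatives varied the features fitted, the filter on dim genes, the spread model, the scaling and the arrays. The fit was tested on simulated data. The number of arrays limits the precision.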

Additional observations from a re-analysis of the deposited data

How the results depend on the processing

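The median snaR difference in gamma_OFF minus CTRL was positive under every alternative run, and leaving out single arrays gave 0.73 to 1.87. The count of snaR genes called by limma in gamma_ON minus CTRL, 0 in the fit of all arrays, was 2 with array weights, 3 with each array centred on its small noncoding RNA genes, 4 in the fit of the 2 groups compared, and 0 to 4 with single arrays left out. The count in gamma_OFF minus gamma_ON, 1 in that fit, was 0 with every named row kept, with every row of the table in the fit, with array weights, with quantile normalization and with only the 2 groups compared. It was 4 with trend and robust fitting or with arrays centred on their median, 6 with dim genes left out or with arrays centred on small noncoding RNA genes, and 0 to 7 with single arrays left out. Calls over all genes rose too, from 5.99% to 10.7% with trend and robust fitting, 14.9% with median centring, 20.1% with dim genes left out and 24.3% with small noncoding RNA centring. With no array left out, calls among the 28 list genes, 0 in each comparison, became 1 in gamma_ON minus CTRL with array weights or small noncoding RNA centring. In gamma_OFF minus gamma_ON they became 2 with trend and robust fitting, 4 with dim genes left out or median centring, and 5 with small noncoding RNA centring. In gamma_ON minus CTRL, limma called 1.55% of all genes in the fit of all arrays and 5.40% with array weights. It called 3.83% with small noncoding RNA centring and 3.27% with only the 2 groups compared. The cause of these shifts was not tested. With single arrays left out, SNAR-G2 in gamma_ON minus CTRL ranged from -0.052 (gamma_ON replicate 1 left out) to 0.10, and SNAR-I in gamma_OFF minus gamma_ON from -0.0073 (gamma_ON replicate 1 left out) to 0.22. SNAR-G2 was also below 0 without CTRL replicate 2, at -0.031, and SNAR-I with small noncoding RNA centring, at -0.093.

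With the replicate number as a block, limma called 2 snaR genes in gamma_OFF minus gamma_ON and 0 in gamma_ON minus CTRL. Of all genes it called 5.85% and 1.41% in these fits. Same-numbered arrays share only a number: their deviations correlated at -0.10, -0.07 and 0.09 across genes.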
